A study of Mus musculus with 24 samples.

Results

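The 10 genes described here encode parts of the inflammasome and of the pyroptosis machinery: the sensors Nlrp3, Nlrc4, Aim2 and Mefv, the adaptor Pycard, the kinase Nek7, the caspases Casp1, Casp4 and Casp8, and the pore-forming protein Gsdmd. They were picked out by gene symbol, and all 10 were found among the 23420 gene symbols of the count tables. Gene expression was measured by RNA-seq in 24 libraries of C57BL/6 mouse cells that fell into 10 groups. Bone marrow-derived macrophages (BMDMs) made up 8 groups of 2 libraries: WT and TDG iKO of a Tdg cohort and WT and TET iTKO of a Tet cohort, each left unstimulated (0 h) or treated for 6 h with Kdo2-lipid A (KLA), a lipid A that activates Toll-like receptor 4. Th2 cells, CD4 T cells from spleen and lymph nodes cultured toward the helper type that makes IL-4, made up the other groups, with 4 TDG iKO and 4 WT libraries that received no KLA. TDG iKO mice carried floxed Tdg and TET iTKO mice carried floxed Tet1, Tet2 and Tet3, in both cases with a Cre recombinase switched on by tamoxifen. Deletion was not restricted to macrophages or T cells, and the control mice, here called WT as in the labels, received tamoxifen too. Mice were adult, aged 8 to 16 weeks.

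An inflammasome is a protein complex that forms in the cytosol when a sensor meets a microbial product or a sign of damage. The sensor recruits the adaptor ASC, which Pycard encodes, and pro-caspase-1, which becomes active, cleaves pro-IL-1β and pro-IL-18, and cuts gasdermin D so that its N-terminal part forms pores in the plasma membrane. In macrophages the NLRP3 pathway is known to need a priming signal, such as Toll-like receptor stimulation, that raises the transcripts of Nlrp3 and Il1b before a further signal assembles the complex. Caspase-11, the product of Casp4 in the mouse, is the sensor of cytosolic lipopolysaccharide and cleaves gasdermin D without caspase-1. The RNA counts reported here measure transcripts and carry no information on assembly, cleavage or cell death.

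NF-kB is a known regulator of Nlrp3 and Casp4 transcription in macrophages. The 250 bases before the first listed start site of each are therefore shown, with Mefv as a KLA-responsive member without such a motif. The sequences are those of the RefSeq promoter table of build GRCm38.p6, and each was found exactly once in the mm9 genome, whose coordinates are given. The table held promoters of 9 of the 10 members, all but Gsdmd. Capitals mark matches, on either strand, to the 10-base NF-kB consensus.
Nlrp3, chr11:59354821-59355070, plus strand: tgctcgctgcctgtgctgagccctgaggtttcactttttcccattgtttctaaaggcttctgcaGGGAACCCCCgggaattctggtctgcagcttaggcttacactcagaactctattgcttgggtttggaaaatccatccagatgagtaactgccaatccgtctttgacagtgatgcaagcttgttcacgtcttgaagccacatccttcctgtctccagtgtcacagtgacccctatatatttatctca
Casp4, chr9:5308599-5308848, plus strand: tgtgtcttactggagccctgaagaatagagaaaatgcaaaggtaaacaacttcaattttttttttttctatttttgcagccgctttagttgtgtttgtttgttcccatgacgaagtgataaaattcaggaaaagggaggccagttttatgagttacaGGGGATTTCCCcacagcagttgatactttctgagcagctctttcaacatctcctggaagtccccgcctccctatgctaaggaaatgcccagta
Mefv, chr16:3718125-3718374, minus strand: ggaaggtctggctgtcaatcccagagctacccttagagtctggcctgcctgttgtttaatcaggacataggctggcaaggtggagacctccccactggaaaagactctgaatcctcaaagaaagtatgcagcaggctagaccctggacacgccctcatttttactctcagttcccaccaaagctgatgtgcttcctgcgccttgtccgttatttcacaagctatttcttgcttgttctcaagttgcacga

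In Nlrp3 the match, on the minus strand, spanned the bases from -186 to -177, counted with -1 as the base before the start site. The promoter of a second listed start site of Nlrp3 held no match. In Casp4 there were 3 overlapping matches between -93 and -83, and the same bases lay in the promoter of a second listed start site of that gene. These were the only 2 members with a match in the 11 member promoters of 300 bases, from 250 before to 50 after the start site. Of all 32851 promoters of that length in the table, 4.51% held the NF-kB consensus and 3.44% held GAAANNGAAA, the repeat of the interferon-stimulated response element, which no member promoter held. A match is a stretch of letters and not a measured binding site.

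Assigned counts per library ranged from 4982950 to 19405606 in the Tdg cohort, from 13145625 to 21503302 in the Tet cohort and from 7641848 to 26657729 in Th2 cells. The shallowest library, WT 0 h replicate 2 of the Tdg cohort, stood apart from replicate 1 of its group for several members: its Nek7 level was 669.6 normalised counts against 1655.2 and its Casp8 level 922.7 against 1509.0. Th2 replicates 3 and 4 differed by little more than counting noise (mean chi-square per gene 1.34 for TDG iKO and 1.51 for WT, while other Th2 pairs gave 21.3 to 218), so they were summed and counted as 1 sample, which left 3 samples per genotype. Apart from animal identifiers carried by the Tet cohort libraries, nothing in the labels says that the other replicates came from separate cultures. The p-values then measure only the spread between these libraries. Because reads were summed over whole genes, they could not check the deletion of floxed exons, which the study measured by qRT-PCR in Th2 cells. Tdg was also hardly counted in any genotype, with 0 to 3 counts in any BMDM library. In WT of the Tdg cohort it had 0 to 1 at 0 h and 1 to 3 at 6 h. The libraries labelled TET iTKO did not have lower Tet2 or Tet3. At 0 h the log2 change by DESeq2 was 0.37 for Tet2 (SE 0.14, adjusted p = 0.0894) and 0.12 for Tet3 (SE 0.12, adjusted p = 0.731). The macrophage markers were detected in every BMDM library, Gata3, Il4, Il5 and Il13 were at or near 0 there, and Csf1r and Mertk had no counts in WT Th2 cells.

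All 10 members were expressed in unstimulated WT BMDMs. Levels are compared between genes as FPKM, that is scaled for the length of the longest coding transcript and for library size. In the 2 WT 0 h libraries of the Tet cohort, Casp1, the protease that matures IL-1β, was highest with 108.6 ± 1.54 FPKM (mean ± SD, n = 2). Gsdmd (52.7 ± 4.64), Pycard (51.1 ± 2.30), Casp8 (49.4 ± 3.46) and Nek7 (45.6 ± 1.23) followed, each within or close to the spread of its neighbour. Casp4 at 26.4 ± 3.97 FPKM and Mefv at 24 ± 2.74 FPKM also did not differ beyond their spread. Aim2 had 18.6 ± 0.471 FPKM, and the sensors Nlrp3 and Nlrc4 were lowest with 7.68 ± 0.900 and 5.14 ± 0.143 FPKM. Casp4 has an exon union of 3710 bases against 1435 in the transcript used, and by the union its level was 10.2 FPKM, below Mefv and Aim2. In the Tdg cohort the same order held for the highest and the 4 lowest members, with Pycard at 87.1 ± 29.8 FPKM next after Casp1 at 120.0 ± 33.0 FPKM.

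KLA re-ordered these levels. At 6 h in WT BMDMs of the Tet cohort, Casp1 remained highest with 215.7 ± 26 FPKM, and Mefv with 108.8 ± 13.8, Casp4 with 96.0 ± 28.8, Gsdmd with 95.9 ± 13.9 and Nlrp3 with 69.1 ± 9.29 FPKM came next, with overlapping spreads from Mefv to Gsdmd. Casp8 (57.9 ± 9.63), whose spread overlapped that of Nlrp3, Pycard (39.8 ± 5.43) and Nek7 (34.9 ± 5.63) followed, and Nlrc4 was still lowest with 12.3 ± 0.798 FPKM. By the exon union Casp4 had 37.1 FPKM at 6 h, below Nlrp3 (68.5), Casp8 (53.9) and Pycard (39.8) on that length.

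**Figure D1:**
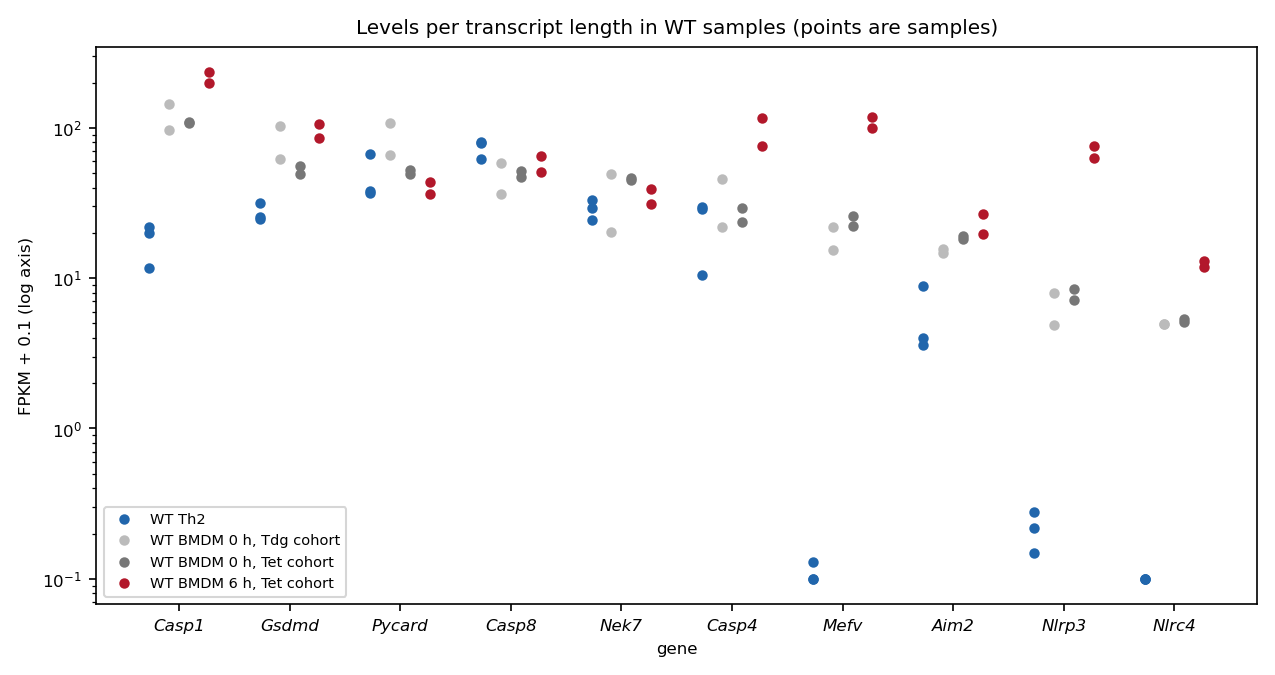
FPKM plus 0.1 on a log axis for each member in WT samples: 3 Th2 samples and the 2 libraries each of BMDMs at 0 h (both cohorts) and at 6 h of KLA (Tet cohort). Points are samples, and genes are ordered by their level in the 0 h libraries of the Tet cohort. Nlrp3, Nlrc4 and Mefv sit near the bottom of the axis in Th2 cells and Nlrp3, Casp4 and Mefv move up most with KLA.

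Nlrp3, the sensor of ion fluxes and membrane damage (chromosome 11, 59355070 to 59380458, plus strand), was the member with the widest KLA response. In the Tet cohort it had 516.9 and 438.5 normalised counts in the WT libraries at 0 h and 3927.8 and 4763.2 at 6 h. In the libraries labelled TET iTKO it had 897.5 and 1050.9 at 0 h and 5687.1 and 7820.4 at 6 h. Every TET iTKO library was above every WT library of the same time, and every 6 h library was far above every 0 h library. In the Tdg cohort Nlrp3 had 313.2 and 191.0 normalised counts in WT and 322.0 and 282.8 in TDG iKO at 0 h, and 4302.3 and 3894.6 in WT and 3406.3 and 4232.7 in TDG iKO at 6 h. The TDG iKO and WT values overlapped at both times.

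The KLA increase of Nlrp3 was 16.1-fold in WT of the Tdg cohort (log2 change 4.01, SE 0.33, adjusted p = 1.36e-31), 12.6-fold in TDG iKO (3.66, SE 0.32, adjusted p = 2.65e-27), 9.11-fold in WT of the Tet cohort (3.19, SE 0.16, adjusted p = 4.56e-84) and 6.93-fold in TET iTKO (2.79, SE 0.16, adjusted p = 7.78e-67). All adjusted p-values are from the Wald test of DESeq2, adjusted over all genes tested unless another tool is named, and a gene is called at an adjusted p below 0.05. Normalised counts are on the scale of their own cohort and are not set side by side across cohorts. The TET effect on Nlrp3 was an increase of 2.05-fold at 0 h (log2 change 1.03, SE 0.16, adjusted p = 4.23e-08) and of 1.55-fold at 6 h (0.64, SE 0.16, adjusted p = 0.00174). The call at 0 h held without any 1 library, whereas at 6 h it was lost without WT 6 h replicate 1 (log2 change 0.50, adjusted p = 0.108) and without TET iTKO 6 h replicate 2 (0.39, adjusted p = 0.324).

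**Figure D2:**
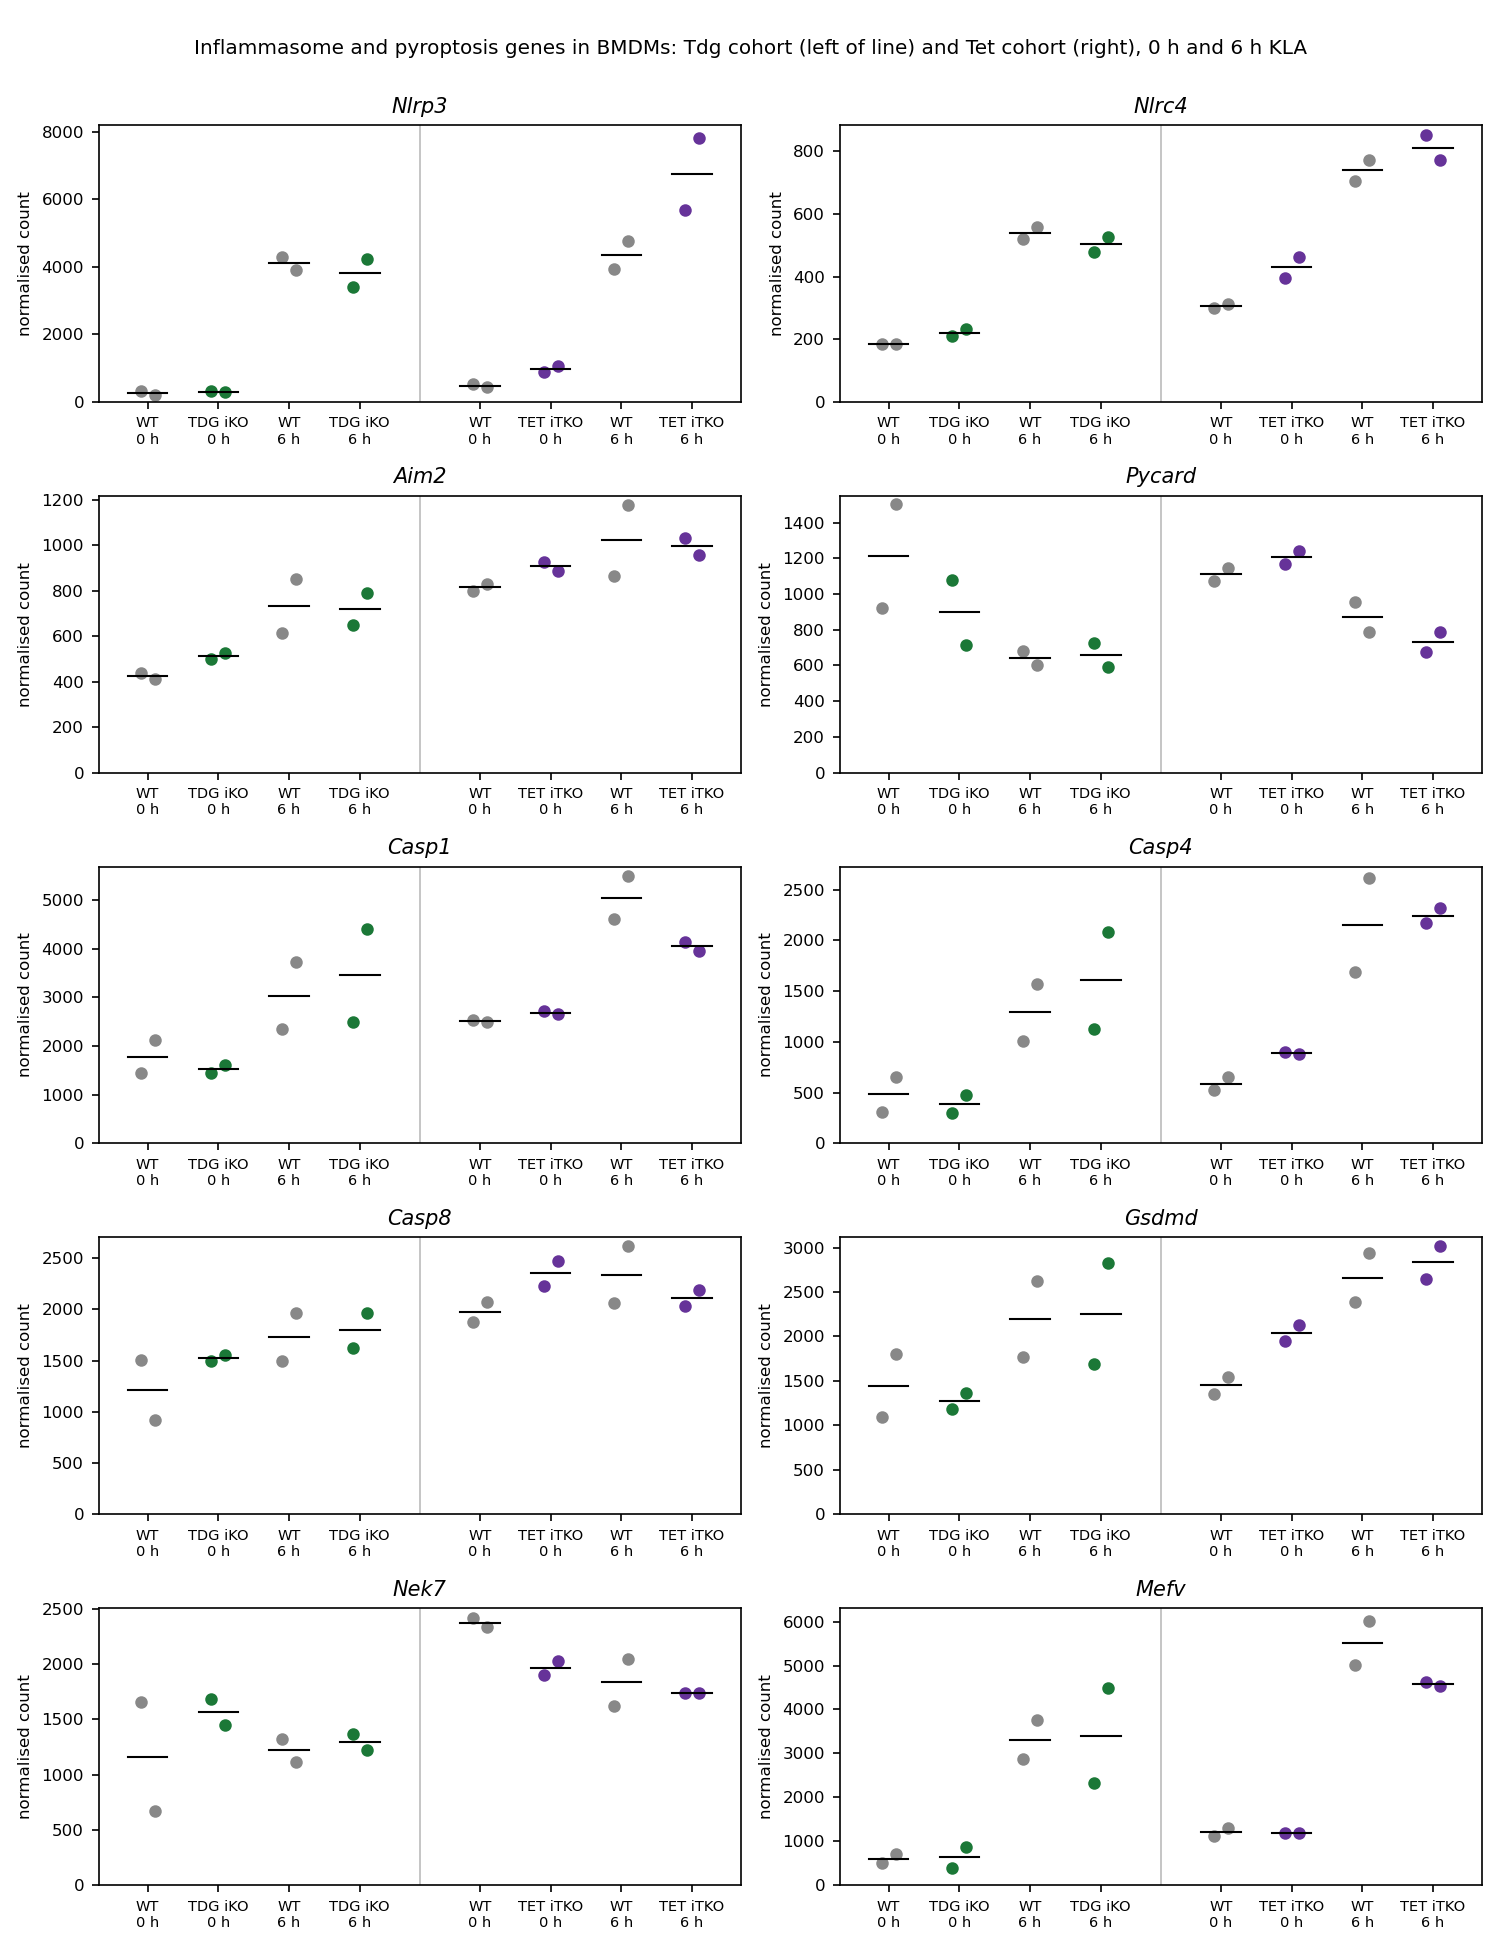
Normalised counts of the 10 members in each of the 16 BMDM libraries, by genotype and time, with the Tdg cohort left and the Tet cohort right of the grey line. Points are libraries and black lines are means of 2 libraries. Nlrp3 rises at 6 h in all 4 genotype groups and is higher in the TET iTKO libraries (897.5 and 1050.9 at 0 h) than in WT (516.9 and 438.5), while the TDG iKO points lie near WT.

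Nlrc4 (chromosome 17, 74825635 to 74858448, minus strand), the adaptor of the NAIP sensors of flagellin and type III secretion proteins, had the lowest level of the sensors and rose with KLA. It had 299.1 and 311.7 normalised counts in WT and 395.4 and 463.0 in TET iTKO at 0 h, and 704.3 and 773.6 in WT and 850.5 and 771.9 in TET iTKO at 6 h. The genotypes were separate at 0 h and overlapped at 6 h. The TET effect was 1.41-fold at 0 h (log2 change 0.49, SE 0.17, adjusted p = 0.0441) and 0.13 on the log2 scale at 6 h (SE 0.16, adjusted p = 0.801). The call at 0 h was lost without each of the 4 libraries in turn, where the log2 change ran from 0.37 to 0.60. The KLA increase passed the test in all 4 genotype groups, at 2.92-fold in WT and 2.28-fold in TDG iKO of the Tdg cohort and at 2.42-fold in WT and 1.88-fold in TET iTKO of the Tet cohort, and in TDG iKO the call was lost without 0 h replicate 1 (log2 change 1.12, adjusted p = 0.0733) or 6 h replicate 2 (1.12, adjusted p = 0.123).

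Mefv (chromosome 16, 3707215 to 3718124, minus strand) encodes pyrin, the sensor of RhoA inactivation. At 0 h it had 1109.9 and 1307.1 normalised counts in WT and 1186.1 and 1188.4 in TET iTKO. At 6 h it had 5023.9 and 6026.9 in WT and 4630.4 and 4533.7 in TET iTKO. The 0 h libraries overlapped between genotypes, and at 6 h the TET iTKO libraries were below WT (log2 change -0.27, SE 0.12, adjusted p = 0.224), which did not pass the test. The KLA increase was 5.55-fold in WT of the Tdg cohort, 5.35-fold in TDG iKO, 4.57-fold in WT of the Tet cohort and 3.86-fold in TET iTKO, each past the test and called without any 1 library.

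Aim2 (chromosome 1, 175281010 to 175396171, plus strand), the sensor of cytosolic DNA, moved least among the sensors. It had 801.2 and 831.9 normalised counts in WT and 927.8 and 886.4 in TET iTKO at 0 h, and 866.2 and 1179.8 in WT and 1033.3 and 957.2 in TET iTKO at 6 h. It was not called by DESeq2 with all libraries in any comparison within BMDMs. Its KLA change was 0.32 on the log2 scale in WT of the Tet cohort (SE 0.16, adjusted p = 0.133), which passed with edgeR (0.32, adjusted p = 0.0282) and without WT 6 h replicate 1 (0.53, adjusted p = 0.0100). In WT of the Tdg cohort it was 0.79 (SE 0.30, adjusted p = 0.0871), which passed when replicate number was blocked (0.77, adjusted p = 0.0292). Of the Aim2 transcript, 11.8% has a near-identical copy elsewhere in the genome (at least 95% identity over at least 50 bases), so some of its reads could have been lost as not unique. The share was 4.72% for Nek7, 2.05% for Casp8, 1.33% for Nlrc4 and 0 for the other 6 members.

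Pycard (chromosome 7, 135135617 to 135137381, minus strand), the ASC adaptor, went the other way with KLA. In TET iTKO BMDMs it had 1170.3 and 1243.2 normalised counts at 0 h and 676.6 and 785.8 at 6 h, a fall to 0.606 of the unstimulated level (log2 change -0.72, SE 0.15, adjusted p = 9.81e-06). In WT of the same cohort it had 1074.0 and 1146.7 at 0 h and 956.9 and 790.2 at 6 h (log2 change -0.35, SE 0.15, adjusted p = 0.0716), which did not pass the test. With the replicate block nested in genotype, which pairs the 0 h and 6 h libraries of the same animal, the WT change passed (log2 change -0.35, adjusted p = 0.0450), as it did with edgeR (-0.35, adjusted p = 0.0144) and without WT 6 h replicate 1 (-0.49, adjusted p = 0.0281). In the Tdg cohort Pycard had 922.5 and 1504.9 in WT and 1081.5 and 716.1 in TDG iKO at 0 h, and 678.9 and 604.0 in WT and 724.0 and 592.8 in TDG iKO at 6 h, and neither KLA change passed the test (log2 change -0.92, SE 0.36, adjusted p = 0.102 in WT, and -0.45, SE 0.36, adjusted p = 0.786 in TDG iKO). The WT change passed when replicate number was blocked (-0.93, adjusted p = 0.0309) and without 0 h replicate 1 (-1.24, adjusted p = 0.0113).

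Nek7 (chromosome 1, 140381291 to 140516273, minus strand), a mitotic kinase that binds NLRP3 and bridges its subunits, had 2419.6 and 2333.0 normalised counts in WT and 1904.1 and 2029.8 in TET iTKO at 0 h. Both TET iTKO libraries were below both WT libraries, but the difference did not pass the test (log2 change -0.27, SE 0.13, adjusted p = 0.239). At 6 h the WT libraries had 1624.1 and 2047.2 and the TET iTKO libraries 1743.4 and 1738.7. The KLA change in WT was a decrease (log2 change -0.37, SE 0.13, adjusted p = 0.0200), and this call was lost without either WT 0 h library, without WT 6 h replicate 1 (-0.21, adjusted p = 0.323), or when only those groups were fitted (-0.36, adjusted p = 0.0577).

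Casp1 (chromosome 9, 5298517 to 5307265, plus strand) had 2538.0 and 2491.9 normalised counts in WT and 2711.8 and 2664.5 in TET iTKO at 0 h. With KLA it reached 4612.5 and 5482.8 in WT and 4144.4 and 3948.1 in TET iTKO. It rose 2.01-fold in WT (log2 change 1.01, SE 0.11, adjusted p = 3.01e-17) and 1.51-fold in TET iTKO (0.59, SE 0.11, adjusted p = 2.62e-06). At 6 h both TET iTKO libraries were below both WT libraries (log2 change -0.32, SE 0.11, adjusted p = 0.0670 by DESeq2 and 0.0376 by edgeR). In the Tdg cohort it rose 2.26-fold in TDG iKO (adjusted p = 0.0419), a call lost in 3 of 4 leave-one-out fits and with edgeR (adjusted p = 0.0708), and the WT change did not pass (log2 change 0.77, SE 0.39, adjusted p = 0.257).

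Casp4 (chromosome 9, 5308828 to 5336783, plus strand) had 524.3 and 650.1 normalised counts in WT and 899.9 and 885.5 in TET iTKO at 0 h, a difference of 1.52-fold (log2 change 0.60, SE 0.18, adjusted p = 0.0156). At 6 h it had 1693.2 and 2612.3 in WT and 2170.3 and 2321.7 in TET iTKO, where the TET iTKO values lay between the WT values (log2 change 0.06, SE 0.17, adjusted p = 0.944). The call at 0 h held only without WT 0 h replicate 2 and was lost without WT 0 h replicate 1 (log2 change 0.45, adjusted p = 0.432), TET iTKO 0 h replicate 1 (0.59, adjusted p = 0.142) or TET iTKO 0 h replicate 2 (0.61, adjusted p = 0.208). Casp4 rose with KLA in all 4 genotype groups, by 3.66-fold in WT and 2.52-fold in TET iTKO of the Tet cohort and by 2.69-fold in WT and 4.18-fold in TDG iKO of the Tdg cohort. In the Tdg cohort these calls rested on few libraries: in WT the call was lost in 3 of 4 leave-one-out fits (log2 change 0.98 to 2.05), and in TDG iKO in 2 of 4 (1.55 to 2.44).

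Casp8 (chromosome 1, 58852218 to 58904347, plus strand), the initiator caspase of death receptor signalling that can also act on gasdermin D, was not called by DESeq2 with all libraries in any comparison within BMDMs. It had 1877.3 and 2076.4 normalised counts in WT and 2230.3 and 2477.5 in TET iTKO at 0 h (log2 change 0.25, SE 0.14, adjusted p = 0.342), and its KLA change in WT of the Tet cohort was 0.24 (SE 0.14, adjusted p = 0.209). The KLA change was called without WT 6 h replicate 1 in the Tet cohort (0.41, adjusted p = 0.0286) and without WT 0 h replicate 1 in the Tdg cohort (0.91, adjusted p = 0.0352).

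Gsdmd (chromosome 15, 75692769 to 75697834, plus strand), the executioner of pyroptosis, had 1357.2 and 1540.1 normalised counts in WT and 1951.4 and 2127.8 in TET iTKO at 0 h. The genotypes did not overlap, and the difference was 1.41-fold (log2 change 0.49, SE 0.14, adjusted p = 0.00727). This call was lost without WT 0 h replicate 1 (0.40, adjusted p = 0.288) and without TET iTKO 0 h replicate 2 (0.43, adjusted p = 0.311). At 6 h the libraries had 2385.1 and 2936.7 in WT and 2647.4 and 3017.8 in TET iTKO and overlapped. Gsdmd rose with KLA by 1.84-fold in WT (adjusted p = 1.94e-09) and by 1.39-fold in TET iTKO (adjusted p = 0.00301), the latter not called without TET iTKO 0 h replicate 1 (log2 change 0.41, adjusted p = 0.0994) or TET iTKO 6 h replicate 2 (0.37, adjusted p = 0.123). The KLA change did not pass the test in WT (log2 change 0.61, SE 0.39, adjusted p = 0.399) or TDG iKO (0.83, SE 0.39, adjusted p = 0.276) of the Tdg cohort.

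Counted over the members, KLA raised 6 and lowered 1 of 10 in WT of the Tet cohort, where 23.6% of 12114 genes tested were called, 12.8% higher and 10.8% lower. In TET iTKO it raised 6 and lowered 1 of 10, where 24.7% of 11240 genes were called, 13% higher and 11.7% lower. In the Tdg cohort it raised 4 of 10 in WT and 5 of 10 in TDG iKO and lowered none, where 8.73% and 6.95% of genes were called and 5.35% and 4.20% were called higher. Nlrp3, Nlrc4, Casp4 and Mefv were called higher in all 4 genotype groups. The median log2 change over the members was 0.94 in WT of the Tet cohort, 0.53 in TET iTKO, 0.78 in WT of the Tdg cohort and 1.00 in TDG iKO, where the medians over all genes tested were -0.01, -0.01, -0.03 and 0.00. The 0 h and 6 h libraries did not overlap for 9 of 10 members in WT of the Tet cohort, 10 in TET iTKO, 7 in WT of the Tdg cohort and 9 in TDG iKO, but the same held for 63.4%, 63.1%, 49.3% and 45.7% of all genes tested. In WT of the Tdg cohort, leaving out the shallow 0 h library left the same 4 members called, and leaving out either 6 h library left 3, Nlrp3, Nlrc4 and Mefv. Without 0 h replicate 1 the 6 called were Nlrp3, Nlrc4, Pycard, Casp8, Nek7 and Mefv, with Pycard lower, where 19.4% of all genes were called. Blocking on replicate number gave 7 members there, Aim2 and Casp1 higher and Pycard lower besides the 4, where 15.7% of all genes were called. In TDG iKO the block gave 6 members, where 11.9% of all genes were called.

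**Figure D3:**
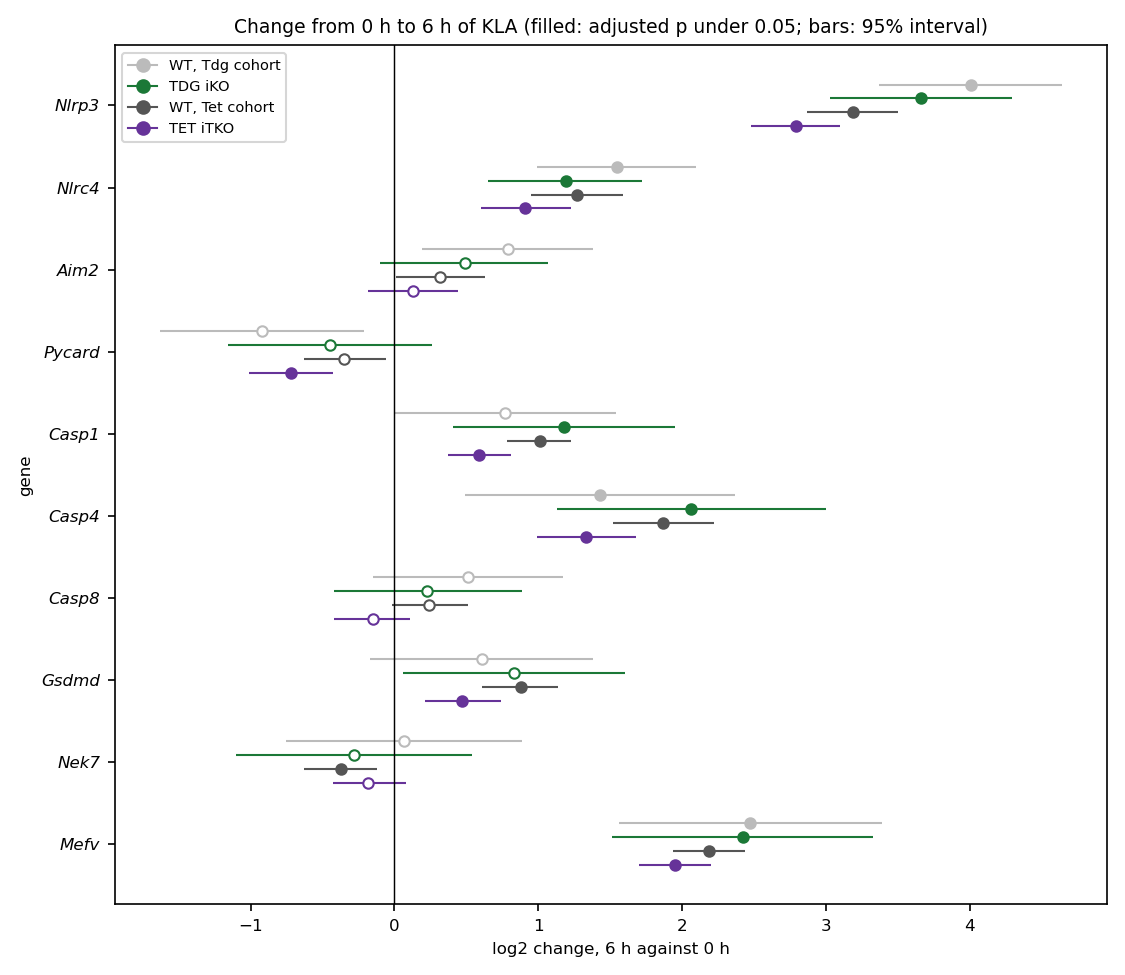
Log2 change from 0 h to 6 h of KLA for each member in the 4 genotype groups of BMDMs. Points are DESeq2 estimates, filled at an adjusted p under 0.05, and bars are 95% intervals. Nlrp3 lies between 2.79 and 4.01, Mefv between 1.95 and 2.47, and Pycard lies below 0 in all 4 groups although only its change in TET iTKO is filled.

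For the TET effect the question was whether loss of TET1, TET2 and TET3 altered expression before and after KLA. At 0 h, 4 of 10 members were higher in the libraries labelled TET iTKO and none lower, where 7.56% of 12114 genes were called and 4.42% were called higher. The 4 were Nlrp3, Casp4, Gsdmd and Nlrc4. The median over the members was 0.20 on the log2 scale against 0.01 over all genes tested. Groups did not overlap for 9 of 10 members, as for 53.7% of all genes tested. Without WT 0 h replicate 1 or without TET iTKO 0 h replicate 2 the count fell to 1, Nlrp3, and without TET iTKO 0 h replicate 1 it fell to 2, Nlrp3 and Gsdmd. The share of all genes called in these 3 fits was 3.40%, 2.46% and 6.32%. At 6 h, 1 of 10 members was higher, Nlrp3, and none lower, where 6.45% of 11823 genes were called and 3.16% were called higher, and no member was called without TET iTKO 6 h replicate 2 (2.43% of all genes). Without WT 6 h replicate 1 the only member called was Casp1, lower (-0.44, adjusted p = 0.0148), with 3.72% of all genes called. The median over the members was -0.06 and groups did not overlap for 4 of 10 members, as for 47.4% of all genes.

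**Figure D4:**
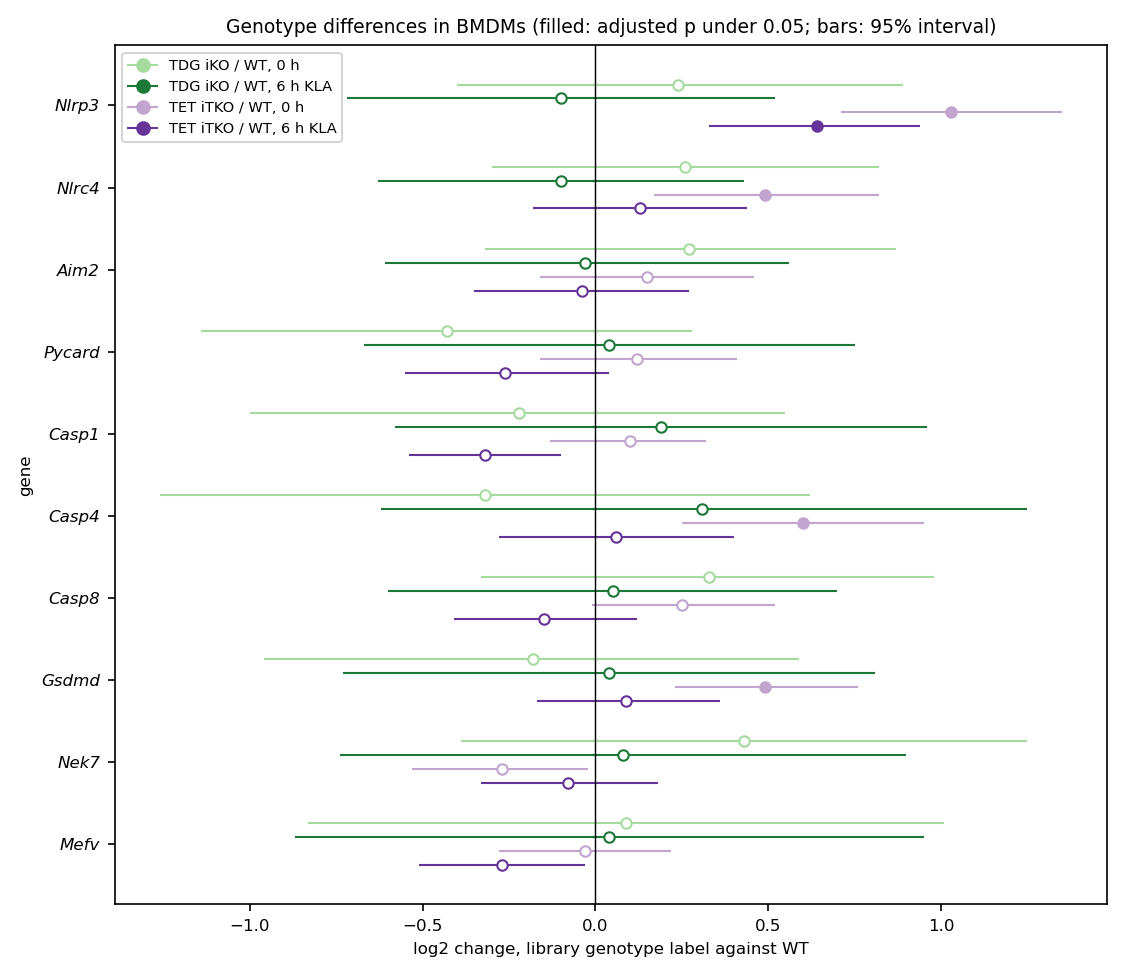
Log2 change of each member in TDG iKO or TET iTKO against WT BMDMs of the same cohort at 0 h and at 6 h of KLA. Points are DESeq2 estimates, filled at an adjusted p under 0.05, and bars are 95% intervals. For TET iTKO, Nlrp3 is filled at both times (1.03 and 0.64) and Nlrc4, Casp4 and Gsdmd at 0 h, and no TDG iKO point is filled.

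No member was called in the test of whether the KLA response differed between TET iTKO and WT, in which 0.429% of 12114 genes were called. The difference of responses was -0.40 for Nlrp3 (SE 0.23, adjusted p = 1.00), -0.54 for Casp4 (SE 0.25, adjusted p = 0.947) and -0.42 for Casp1 (SE 0.16, adjusted p = 0.576), and its median over the members was -0.39 against -0.01 over all genes. Casp4 was called by edgeR (-0.53, adjusted p = 0.0458), and without WT 6 h replicate 1 Casp1 (-0.53, adjusted p = 0.0313) and Casp4 (-0.82, adjusted p = 0.00744) were called by DESeq2, in a fit that called 3.65% of 4221 genes. For Nlrc4 and Gsdmd, whose TET effects passed at 0 h and not at 6 h, no fit that was run called a difference between the times, and for Casp4 the call rested on the tool and on that library. The fit with all libraries did not pair the 0 h and 6 h libraries of an animal. With the replicate block nested in genotype, which pairs them, 2.51% of 8909 genes and no member were called.

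TDG deletion gave no call among the members in BMDMs. At 0 h and at 6 h, 0 of 10 members were called, as were 0% of 15026 genes, with 265 and 34 genes at an unadjusted p under 0.05, none of them a member, and no gene called by edgeR. The 95% interval of the log2 change was -0.40 to 0.89 for Nlrp3 at 0 h and -0.72 to 0.52 at 6 h, and it was widest for Casp4 and Mefv, at -1.26 to 0.62 and -0.83 to 1.01 at 0 h. The intervals of Nlrc4 (-0.30 to 0.82), Casp4 and Gsdmd (-0.96 to 0.59) at 0 h included the sizes of the TET effects on these genes, which could therefore not be told from 0 in this cohort, and that of Nlrp3 did not reach its TET effect of 1.03. Groups did not overlap for 2 of 10 members at 0 h, Nlrc4 and Aim2 (20.6% of all genes), and for 0 at 6 h (16%). Without WT 0 h replicate 1 the shallow library alone stood for WT at 0 h, 1184 of 10272 genes were called and Nek7 was among them (log2 change 1.22, adjusted p = 0.00277), whereas without the shallow library 2 genes and no member were called. The KLA response of no member differed between TDG iKO and WT, with 0% of 15026 genes called, 37 at an unadjusted p under 0.05 of which none was a member, and none by edgeR.

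The TET and TDG effects were compared over all 16 BMDM libraries, with every knockout set against the WT of its cohort. No member passed the test at 0 h or at 6 h after adjustment, where 0.340% and 0.0888% of genes were called. For Nlrp3 the TET effect exceeded the TDG effect by 0.80 on the log2 scale at 0 h (SE 0.36, 95% interval 0.09 to 1.51, adjusted p = 0.745) and by 0.75 at 6 h (SE 0.35, 0.07 to 1.43, adjusted p = 1.00). Without WT 0 h replicate 1 of the Tdg cohort, Pycard (0.88, adjusted p = 0.0480) and Nek7 (-1.48, adjusted p = 6.99e-07) were called at 0 h, but that fit called 21.1% of all genes, near the share of the members.

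In Th2 cells 7 of the 10 members were readily detected and Nlrp3, Nlrc4 and Mefv were not. In the 3 WT samples Casp8 was highest with 73.8 ± 10.5 FPKM, followed by Pycard with 46.9 ± 17, Nek7 with 28.8 ± 4.25, Gsdmd with 27.2 ± 3.70, Casp4 with 22.9 ± 10.9, Casp1 with 17.7 ± 5.43 and Aim2 with 5.39 ± 2.94 FPKM. From Nek7 to Casp1 neighbours did not differ beyond their spread. Nlrp3 had 0.114 ± 0.0641 FPKM, Mefv had 1 count in all and Nlrc4 had none.

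Between unstimulated WT BMDMs and WT Th2 cells, 6 of 10 members were higher and 1 lower in BMDMs, where 53.7% of 14175 genes were called, 25.3% higher and 28.4% lower. Cell type and library batch cannot be told apart in this contrast. Casp1 was 6.24-fold higher in BMDMs (log2 change 2.64, SE 0.31, adjusted p = 1.61e-16), Aim2 3.06-fold (1.61, SE 0.35, adjusted p = 1.51e-05) and Gsdmd 2.41-fold (1.27, SE 0.31, adjusted p = 0.000106). Nlrp3 had 23 counts over the WT Th2 libraries and was 93.7-fold higher in BMDMs (95% counting interval 62.4 to 148) by the ratio of counts scaled to library size. Nlrc4 had 0 counts and was at least 489-fold higher, taking 3 counts over the Th2 group as the limit that a count of 0 allows. Mefv had 1 count, a ratio of 5299 with a counting interval of 951 to 209307. Intervals and limits from counts cover counting error only.

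The members that did not pass the test between the cell types were Pycard (log2 difference 0.53, SE 0.36, adjusted p = 0.216), Casp4 (0.33, SE 0.45, adjusted p = 0.547) and Nek7 (0.45, SE 0.34, adjusted p = 0.273), whose 95% intervals of -0.18 to 1.24, -0.54 to 1.20 and -0.23 to 1.12 leave room for differences of more than 2-fold. Nek7 was called without the shallow WT library (0.72, adjusted p = 0.000126). Casp8 was 1.57-fold lower in BMDMs (log2 difference -0.65, SE 0.26, adjusted p = 0.0279), a call lost in 8 of 12 alternatives, among them edgeR (-0.54, adjusted p = 0.0780).

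No member passed the test between TDG iKO and WT Th2 cells, where 0% of 15826 genes were called, 77 genes had an unadjusted p under 0.05, none of them a member, and edgeR called none. With the replicate number as a block, which pairs samples whose shared origin is not stated, 15 of 10350 genes were called and 0 members. Taken without the pairing, the samples of the genotypes overlapped for all 10 members. Within the 3 pairs of equal number Gsdmd and Casp1 were lower in TDG iKO each time. The share of all genes with such a pattern was not computed, so it does not set these 2 members apart. Under the block the log2 change was -0.09 for Gsdmd (95% interval -0.35 to 0.17) and -0.30 for Casp1 (-0.63 to 0.04), both at a DESeq2 adjusted p of 0.999. Casp8 had 4043.7, 3564.5 and 3036.2 normalised counts in TDG iKO and 3647.0, 3696.0 and 2606.3 in WT (log2 change 0.10, 95% interval -0.35 to 0.55), and Gsdmd had 787.3, 718.1 and 833.3 against 807.8, 774.9 and 911.5 (-0.09, -0.42 to 0.23).

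Around the members, 4 lists with 67 other genes of the pathway were examined: other sensors, regulators of assembly, substrates and effectors, and apoptosis and necroptosis partners. No list gene was called for the TDG effect in BMDMs or Th2 cells. Over all genes tested, the TET effect was called for 7.56% at 0 h, 4.42% higher, and for 6.45% at 6 h, 3.16% higher. These shares are the background for the counts of each list given below. For the TET effect at 0 h, 5 of 17 other sensors tested were higher and none lower, among them Naip2 (log2 change 0.61, SE 0.11, adjusted p = 6.17e-06), which detects type III secretion rod protein and signals through NLRC4, Zbp1 (0.54, SE 0.14, adjusted p = 0.00258), a sensor of Z-form nucleic acid, and Nod2 (0.73, SE 0.21, adjusted p = 0.0105), a sensor of muramyl dipeptide. The count fell to 1 without WT 0 h replicate 1 or TET iTKO 0 h replicate 2. At 6 h, 0 of 17 were called by DESeq2 and 5 by edgeR, which called 9.36% of all genes.

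Il1b, the main cytokine substrate of caspase-1, had 18.3 to 32.8 normalised counts in WT and 232.9 to 478.2 in TET iTKO at 0 h, a 14.1-fold difference (log2 change 3.82, SE 0.53, adjusted p = 1.91e-10). At 6 h it had 2220.1 to 2445.6 in WT and 5206.7 to 9179.7 in TET iTKO (1.62, SE 0.50, adjusted p = 0.0215), and this call was lost without TET iTKO 6 h replicate 2 (1.16, adjusted p = 0.502), WT 6 h replicate 1 (1.56, adjusted p = 0.281) or WT 6 h replicate 2 (1.70, adjusted p = 0.161). Il1a was higher at both times (0.74, adjusted p = 0.00727, and 1.18, adjusted p = 3.95e-11), so 2 of 7 substrates and effectors tested were called at each time, against 7.56% and 6.45% of all genes. Its call at 0 h was lost without WT 0 h replicate 1 (0.44, adjusted p = 0.497), without TET iTKO 0 h replicate 1 (0.65, adjusted p = 0.136) and with only the groups compared (0.76, adjusted p = 0.192). Il18, the other cytokine substrate, was not called (log2 change -0.12, adjusted p = 0.946 at 0 h, and -0.71, adjusted p = 0.244 at 6 h).

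Of the regulators, 2 of 16 were higher at 0 h, Serpinb1a, an inhibitor of neutrophil serine proteases that had only 7.64 to 64.7 normalised counts, and the guanylate-binding protein Gbp2 (1.21, SE 0.40, adjusted p = 0.0383), but the count fell to 0 without WT 0 h replicate 1 or TET iTKO 0 h replicate 2. At 6 h Serpinb1a was higher (2.82, adjusted p = 0.0129), a call lost without WT 6 h replicate 1 (adjusted p = 0.185), WT 6 h replicate 2 (adjusted p = 0.0855) or TET iTKO 6 h replicate 2 (adjusted p = 0.262), and P2rx7, the ATP-gated channel upstream of NLRP3, was lower (-0.82, SE 0.15, adjusted p = 3.84e-06, with 1140.5 to 1221.7 normalised counts in WT and 580.4 to 760.2 in TET iTKO). Of the partners, Birc3, a ubiquitin ligase, was higher at 0 h (0.92, adjusted p = 1.93e-09) and at 6 h (0.42, adjusted p = 0.0237, not called without WT 6 h replicate 1, without TET iTKO 6 h replicate 2 or with only the groups compared). Casp12 had 2.06 to 11 normalised counts in the Tet cohort and was not called.

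With KLA in WT of the Tet cohort, 7 of 17 other sensors rose and 2 fell, 7 of 16 regulators rose, 4 of 7 substrates and effectors rose and 1 fell, and 5 of 16 partners rose. Of all genes tested, 23.6% were called there, 12.8% higher and 10.8% lower. The guanylate-binding proteins Gbp5 (log2 change 4.44), Gbp3 (2.78) and Gbp2 (2.34), the sensors Ifi205 (3.16), Nod2 (2.37) and Nlrc5 (1.09), and Il1b (6.53), Il1a (4.35) and the membrane-rupture protein gene Ninj1 (1.03) were among those that rose. Nlrc3 (-2.22), Nlrp1b (-1.77) and the gasdermin gene Dfna5 (-1.75) fell, and Il18 was not called (-0.29, adjusted p = 0.616). Birc3 (2.28), Cflar (1.55) and Birc2 (0.68) rose among the partners.

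In the Tet cohort, markers of several other cell types moved with the TET label. Summed over the macrophage list of 8 genes, WT libraries had 28067 to 29197 CPM (counts scaled to library size) and TET iTKO libraries 23354 to 23792 at 0 h, with Itgam higher and Cd68, Lyz2, Mertk and Mrc1 lower. The 9 neutrophil and granulocyte progenitor genes found in the files summed to 169 to 172 in WT and 272 to 368 in TET iTKO at 0 h and to 112 to 136 and 213 to 247 at 6 h, with 4 of 8 tested higher at both times and Retnlg at 0 in WT. The monocyte and progenitor list of 7 genes summed to 196 to 197 against 295 to 491 at 0 h and to 194 to 202 against 237 to 326 at 6 h, with 5 higher and Ly6c2 lower at both times. The B cell list of 4 genes summed to 1.58 to 1.91 against 5.61 to 21.9 at 0 h. The dendritic cell list of 5 genes summed to 0.410 to 0.493 against 1.79 to 4.68 at 0 h, with Ccr7 higher at both times. The T cell list of 8 genes summed to 19.1 to 29.7 in WT and 20.2 to 22.7 in TET iTKO at 0 h, and none of its 4 tested genes was called. Some of these levels were also seen at 0 h in the Tdg cohort. Its WT libraries had monocyte sums of 383 to 539 and dendritic cell sums of 13.5 to 14.7. Neutrophil sums ran from 69.2 to 531 in TDG iKO and from 87.2 to 185 in WT. Macrophage sums there (25349 to 29095 in WT, 24843 to 24855 in TDG iKO) stayed above the TET iTKO range. B cell sums (3.25 to 4.29 and 0.983 to 5.59) stayed below it. The part of these markers in the TET effect on the members was not tested, and in bulk libraries a change in the number of cells of a type cannot be told apart from a change in RNA per cell.

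Across the 16 BMDM libraries, the genes whose profile was most like that of the 3 members with the widest range were found by the Pearson correlation of log2(normalised count + 1), among 9475 genes with a mean of at least 50. For Nlrp3, whose group means spanned 4.12 on the log2 scale, they were Birc3 (r = 0.992), Irak3 (0.990) and Pde4b (0.990). For Mefv, with a range of 2.57, they were Slc31a2 (0.993), Snx10 (0.988) and Tnip1 (0.987). For Casp4, with a range of 2.04, they were Relb (0.986), Slco3a1 (0.984) and Ifngr2 (0.982). These points share the KLA contrast, the cohorts and the animals, so the correlations describe these libraries only.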

How the data were processed

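Polyadenylated RNA was sequenced as directional paired-end libraries. The authors aligned reads to mm9 with HISAT2 and counted them with HTSeq, and the deposited values were raw counts per gene for 23420 symbols. The annotation, strand setting and tool versions used there are not given in the sources used here (the submitters' processing notes name DESeq2 1.30.0). The 5 tallies of unassigned read pairs were left out of library sizes and tests. Assigned counts made up 48.4% to 67.2% of all pairs, and total counts per library ran from 4982950 to 26657729.

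Groups came from the labels. Following the study's methods, comparisons used DESeq2 1.42.0 (Wald test, in R 4.3.3) on all genes, with median-of-ratios size factors and Benjamini-Hochberg adjustment. Each BMDM cohort was fitted as 4 groups of 2 libraries, the TET and TDG effects were compared in a fit of all 16 BMDM libraries, and the 4 WT 0 h BMDM libraries were compared with 3 WT Th2 samples. These fits did not pair the 0 h and 6 h libraries, although those of a Tet cohort number carry the same animal identifier. Pairing entered only through the nested block among the alternatives. Normalised counts are counts divided by the size factors of the cohort's fit. FPKM used TMM scaling (edgeR 4.0.16) and GENCODE vM1 transcript lengths. The members and lists were chosen with earlier results of these data known. All 10 members were named. Of each list the genes named were those called with the smallest adjusted p, up to 3 in each direction, in the TET effects and in the KLA response of WT of the Tet cohort, plus Il1b, Il18 and Casp12. Of the partners, a gene that this rule also names is not reported here.

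Alternatives were edgeR's quasi-likelihood test, TMM factors in DESeq2, a filter of 10 counts in 2 libraries, the replicate block (also nested within genotype), only the compared groups in the fit, each BMDM cohort alone against Th2 cells, Th2 replicates 3 and 4 kept separate, and leaving out each library. The same settings were applied to the list genes after the data had been seen. Where a group was left with 1 library, that library was assumed to vary like the other groups. Pairing by replicate number was examined from the correlation, across genes, of deviations from group means. It was 0.510, 0.733 and 0.919 for the 3 Th2 pairs. Correlations between samples of different numbers were not computed. Within each genotype replicates 1 and 2 lay closer to each other than to replicates 3 and 4. These correlations therefore cannot show that equal numbers share an origin. The 0 h and 6 h libraries of a Tet cohort number carry the same animal identifier (correlation 0.505 in WT and 0.391 in TET iTKO). On simulated counts with known changes, DESeq2 recovered 88.0% of genes changed by 1 and 100.0% of those changed by 2 on the log2 scale for the TET effect at 0 h (15028 genes, 7.4% of calls false), 15.0% and 82.0% for the TDG effect at 0 h (15026 genes, 26% false), 25.0% and 73.0% for their difference (15753 genes, 24% false), 40.0% and 96.0% for the Th2 comparison (15898 genes, 31.3% false), and 36.0% and 97.0% for BMDMs against Th2 cells (16162 genes, 24.4% false). In each simulation 100 genes were changed by each size, all picked with a mean of at least 50 counts. Apart from these changes every library was drawn from 1 common mean per gene, with no KLA effect, pairing or outlying library. Recovery for weaker genes and in the real libraries can therefore differ.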

Additional observations from a re-analysis of the deposited data

Results flagged for a closer look

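Among the members and list genes, Il1b was the only gene whose effects differed between the cohorts by a test of the difference itself. Over all genes, that test called 38 of 11172 at 0 h. Its TET effect at 0 h exceeded its TDG effect by 3.68 on the log2 scale (SE 0.84, DESeq2 adjusted p = 0.00624), with 18.3 to 32.8 normalised counts in WT and 232.9 to 478.2 in TET iTKO of the Tet cohort, and 144.3 to 145.0 in WT and 45.2 to 275.2 in TDG iKO of the Tdg cohort. These counts are on the scale of their own cohort. Within its cohort, each TET iTKO library was above WT, and the TDG iKO libraries lay on both sides of their WT. The call was lost without WT 0 h replicate 2 of the Tdg cohort (3.66, adjusted p = 0.330), TET iTKO 0 h replicate 2 (3.07, adjusted p = 0.406) or WT 0 h replicate 2 of the Tet cohort (3.31, adjusted p = 0.238), and when only the groups compared were fitted (3.67, adjusted p = 0.0958).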

How the results depend on the processing

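No member or named gene reversed its direction among called values. Of the counts of members called, 9 that left out a library and 4 under other settings moved by over 1.5 times. With edgeR 2 members were called for the TET effect at 6 h (Nlrp3 and Casp1), where it called 9.36% of all genes. In the TET change of the KLA response edgeR called 1 member (Casp4) and 1.80% of all genes. With the replicate block, alone or nested in genotype, 7 members were called for KLA in WT of the Tdg cohort, with Aim2, Pycard and Casp1 added, although those numbers share no stated origin (correlation of deviations 0.361, and 0.823 in TDG iKO, 0.313 and 0.822 for the TDG effect, 0.0175 and 0.0650 for the TET effect). Of all genes, the block called 15.7% (nested 16.1%) for KLA in WT of that cohort and 11.9% in TDG iKO. Under the block Gsdmd was also called in TDG iKO (0.78, DESeq2 adjusted p = 0.0142). The block changed no other call of a count of members by over 1.5 times. Leaving out each library gave 0 to 1 members for the TDG effect at 0 h, 1 to 3 and 0 to 1 for the TET effect at 0 h and 6 h, 2 to 5 for KLA in TDG iKO, 0 to 2 for the TET change of the KLA response and 0 to 2 for the TET minus TDG effect at 0 h.

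For the TET effect at 0 h, other sensors numbered 9 with edgeR and 1 to 5 without a library; regulators 7 with edgeR, 5 with the replicate block, 6 with only the groups compared and 0 to 1 without a library; substrates 1 with only the groups compared and 1 to 2 without a library; and partners 5 with edgeR, 2 with the filter, 2 with the block and 4 with only the groups compared. At 6 h, sensors numbered 5 with edgeR, 2 with the block and 0 to 3 without a library, regulators 5 with edgeR and 1 to 2 without a library, substrates 1 to 2 without a library, and partners 1 with only the groups compared and 0 to 3 without a library. KLA in WT of the Tet cohort gave 2 to 6 partners without a library. The cause of these shifts was not tested, other than that fits without a library held fewer samples.

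Over all genes, edgeR called 1637 against 916 by DESeq2 for the TET effect at 0 h, 1407 against 762 at 6 h, 270 against 52 for the TET change of the KLA response (224 with the nested block and 90 with the block) and 1 against 11 for the TET minus TDG effect at 6 h. With the block 1805 genes (nested 1813) against 1006 were called for KLA in WT and 1373 (nested 1315) against 821 in TDG iKO of the Tdg cohort, 182 against 38 and 101 against 11 for the TET minus TDG effect at 0 h and 6 h (20 and 24 with only the groups compared), and 4 against 0 for the TDG effect at 0 h. The Th2 comparison gave 2 genes with replicates 3 and 4 separate and 87 with the block added. Replicates differed more in the Tdg cohort (mean chi-square per gene 37.4 to 80.6) than in the Tet cohort (10.9 to 25.2), and Nlrp3, Nlrc4 and Mefv were near the counting limit in Th2 cells. Il1b was called in the TET change of the KLA response by edgeR (-2.24, adjusted p = 1.12e-21) and with the nested block (-2.19, adjusted p = 0.000668), but not by the DESeq2 fit without it (-2.19, adjusted p = 0.275).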
